A study of Caenorhabditis elegans with 2 samples.

Results

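MicroRNA (miRNA) genes were examined in a map of where the DNA-binding protein GMEB-2 sits in the genome of Caenorhabditis elegans embryos. They are the 261 nuclear genes of biotype miRNA in the Ensembl annotation of assembly WBcel235, out of 46890 nuclear genes. The class was taken up with earlier results of these data known, but no measured value decided which genes belong to it. The vertebrate relatives of GMEB-2 are known as glucocorticoid modulatory element binding proteins. Binding was mapped by ChIP-seq (sequencing of chromatin recovered by immunoprecipitation) with an antibody against GFP. The animals were whole late embryos of mixed sex, taken 5 h after synchronization by egg bleaching. Their strain, OP622, has the genotype unc-119(tm4063) III; wgIs622, where wgIs622 is a transgene that makes GMEB-2 with GFP and FLAG at its C-terminus. The promoter of the transgene is not given in the sources used here, so binding is that of the tagged protein in this 1 line. All embryos carried the unc-119 mutation and the transgene, and the 2 samples were biological replicates of 1 group, so there was no other condition to compare. The labels name 2 sequencer models for replicate 2 and none for replicate 1. Whole embryos mix all tissues, and peak lists hold no expression values against which stage or tissue markers could be checked.

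MicroRNAs are short RNAs that guide an Argonaute protein to messenger RNAs, which are then repressed. RNA polymerase II makes a long primary transcript, from which Drosha and then Dicer cut a hairpin and a duplex, and 1 strand of the duplex is kept. Targets are recognised largely through the seed, bases 2 to 8 of the mature miRNA, so genes whose products share a seed form a family. In C. elegans the first miRNAs known, lin-4 and let-7, time larval development, while the mir-35 and mir-51 families are each needed for embryonic development. The annotated gene is usually the hairpin and not the start of the primary transcript, so a distance from its 5′ end is not a distance from a promoter. The median annotated miRNA gene was 95 bp long, and 257 of the 261 were no longer than 150 bp.

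The mature sequences of the families that the results turn on are given first, 5′ to 3′, with the seed in capitals. They were read from the RefSeq genome sequence of WBcel235 at the coordinates of the mature transcripts in the Ensembl annotation. The first 6 share the seed ACCCGUA and form the mir-51 family. All 6 had a GMEB-2 peak among the strongest 2000.
mir-51: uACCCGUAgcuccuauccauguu
mir-52: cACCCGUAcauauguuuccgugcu
mir-53: cACCCGUAcauuuguuuccgugcu
mir-54: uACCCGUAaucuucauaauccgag
mir-55: uACCCGUAuaaguuucugcugag
mir-56: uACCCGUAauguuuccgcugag
Outside the seed these sequences vary. The mature miRNAs of mir-52 and mir-53 were equal at 23 of 24 bases, whereas mir-51 and mir-52 were equal at 10 of the 23 bases compared, counted from the 5′ end without gaps. The next set shows the families used for contrast: mir-80, mir-81 and mir-82 share the seed GAGAUCA, which mir-58a does not carry in full, mir-35 and mir-42 share CACCGGG, and the let-7 family shares GAGGUAG.
mir-80: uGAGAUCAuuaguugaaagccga
mir-81: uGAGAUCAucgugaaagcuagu
mir-82: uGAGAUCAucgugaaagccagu
mir-58a: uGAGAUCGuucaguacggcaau
mir-35: uCACCGGGuggaaacuagcagu
mir-42: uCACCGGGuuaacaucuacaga
let-7: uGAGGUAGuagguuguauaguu
mir-48: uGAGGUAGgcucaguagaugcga
mir-84: uGAGGUAGuauguaauauuguaga
mir-241: uGAGGUAGgugcgagaaauga

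The genomic sequence under 5 of the peaks is shown next, as the summit (the position of highest signal in a peak) with 100 bp on either side, on build ce11 and on the strand of the miRNA gene. They are the 4 peaks of the mir-51 family and the peak of mir-80. Capitals mark matches, on either strand, to 6 searched words. One was TACGTA. Another was ACGCGC, and a related one was GCGCAC. The others were the words CGCAAG and CTCCGCCC and the B box, an internal element of tRNA genes. In the third sequence CGCAAG overlaps the match to GCGCAC. The peak of mir-51 lies at chrIV:11026086-11026286, minus strand.
mir-51 peak: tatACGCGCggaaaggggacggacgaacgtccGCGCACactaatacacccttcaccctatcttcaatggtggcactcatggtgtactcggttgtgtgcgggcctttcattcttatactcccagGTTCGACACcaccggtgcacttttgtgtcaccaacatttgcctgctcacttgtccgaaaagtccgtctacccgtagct
The peak of mir-52 lies at chrIV:14033915-14034115, plus strand.
mir-52 peak: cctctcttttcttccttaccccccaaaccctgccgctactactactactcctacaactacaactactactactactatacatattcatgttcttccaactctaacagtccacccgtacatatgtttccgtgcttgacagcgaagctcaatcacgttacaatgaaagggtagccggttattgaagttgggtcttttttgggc
The peak of mir-54 to mir-56 lies at chrX:13145091-13145291, minus strand.
mir-54 to mir-56 peak: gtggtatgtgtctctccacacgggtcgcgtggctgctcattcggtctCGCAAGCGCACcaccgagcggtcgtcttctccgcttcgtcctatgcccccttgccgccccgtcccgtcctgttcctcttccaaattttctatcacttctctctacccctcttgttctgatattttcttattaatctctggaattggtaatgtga
The peak of mir-53 lies at chrIV:11027627-11027827, minus strand.
mir-53 peak: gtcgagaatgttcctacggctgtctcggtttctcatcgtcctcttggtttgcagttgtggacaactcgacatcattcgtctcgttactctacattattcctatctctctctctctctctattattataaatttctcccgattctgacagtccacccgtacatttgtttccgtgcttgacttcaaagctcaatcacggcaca
The peak of mir-80 lies at chrIII:8865432-8865632, minus strand.
mir-80 peak: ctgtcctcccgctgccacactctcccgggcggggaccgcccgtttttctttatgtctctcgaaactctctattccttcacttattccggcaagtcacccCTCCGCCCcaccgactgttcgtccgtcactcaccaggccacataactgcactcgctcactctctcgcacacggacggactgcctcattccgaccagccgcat
No searched word occurred in the windows of mir-52 and mir-53. All 36-base stretches of these 5 windows occurred once in the genome.

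GMEB-2 peaks lay at a small number of miRNA genes, and the strongest of them were at members of the mir-51 family. Each gene was given the strongest summit between 1000 bp before and 500 bp after its 5′ end. In the list of 634 peaks that the authors selected by irreproducible discovery rate (IDR, agreement in rank between replicates), 10 of 261 miRNA genes had such a summit, at 7 separate peaks. The 10 genes were mir-51, mir-52, mir-54, mir-55, mir-55b, mir-56, mir-80, mir-354, mir-1824 and mir-5549. That is 3.83% of miRNA genes, beside 2.34% of all nuclear genes, 3.37% of nuclear genes other than those of piRNAs (short germline RNAs annotated in large numbers) and 2.22% of protein-coding genes. The share of miRNA genes was 1.14 times that of the non-piRNA genes, so at this threshold the miRNA genes as a group were close to the background. With 1 library alone the count moved: the strongest 634 peaks of replicate 2 placed 13 miRNA genes (4.98%, background 3.41%), and those of replicate 1 placed 6 (2.30%, background 3.12%). The order of miRNA genes and background thus differed between the replicates. In replicate 2, mir-54, mir-55, mir-55b and mir-56 shared 1 peak. There mir-229, mir-64 and mir-65 shared another, at rank 634, the last one counted. The 6 genes of replicate 1 had separate peaks.

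Below the IDR threshold the miRNA genes stood further above the background by ratio at middle depths, but not over the whole joint list. The authors also deposited relaxed lists of 30000 peaks each, from both replicates jointly and from each alone, which hold background by construction. Within the strongest 2000 joint peaks, 34 miRNA genes (13.0%) had a summit, beside 7.22% of the non-piRNA genes. Within the strongest 5000 it was 62 (23.8%, background 13.0%), within 10000 it was 81 (31.0%, background 20.9%), and over the whole list it was 129 (49.4%, background 43.6%). The ratio of the shares was 1.81 at 2000 peaks, 1.82 at 5000, 1.48 at 10000 and 1.13 at 30000. The replicates alone gave 31 genes at 2000 peaks in replicate 1 (11.9%, background 6.53%) and 25 in replicate 2 (9.58%, background 6.95%). Over their whole lists replicate 1 gave 138 genes (52.9%, background 44.0%) and replicate 2 gave 142 (54.4%, background 44.0%). At 2000 joint peaks snoRNA genes (22.0%) and tRNA genes (51.1%) were higher. There snRNA genes (10.1%), other noncoding RNA genes (9.45%) and protein-coding genes (5.35%) were lower. This order did not hold at every limit. At 634 joint peaks snRNA genes (5.43%) and other noncoding RNA genes (4.02%) were above the 3.83% of miRNA genes. Over the whole joint list other noncoding RNA genes (54.0%) were above the 49.4% of miRNA genes. Among genes with a joint summit, the median rank of the strongest one was 5578 for miRNA genes and 10558 for non-piRNA genes. In the replicates alone the medians were closer, at 9693 against 11312 in replicate 1 and 9445.5 against 10978 in replicate 2.

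Some miRNA genes lie in clusters and share a peak. When miRNA genes on 1 strand were chained wherever their 5′ ends lay within 1000 bp, the 261 genes formed 227 loci, 18 of them with several genes and the largest with 7. With loci counted in place of genes, 8 of 227 (3.52%) had an IDR summit, beside 3.28% of the non-piRNA loci built the same way. Within the strongest 2000 joint peaks 24 loci did (10.6%, beside 7.03%), and within 5000 it was 49 (21.6%, beside 12.8%). At the other end, 132 miRNA genes had no joint summit, 86 had none in any list, and 98 had one in each of the 3 relaxed lists.

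**Figure D1:**
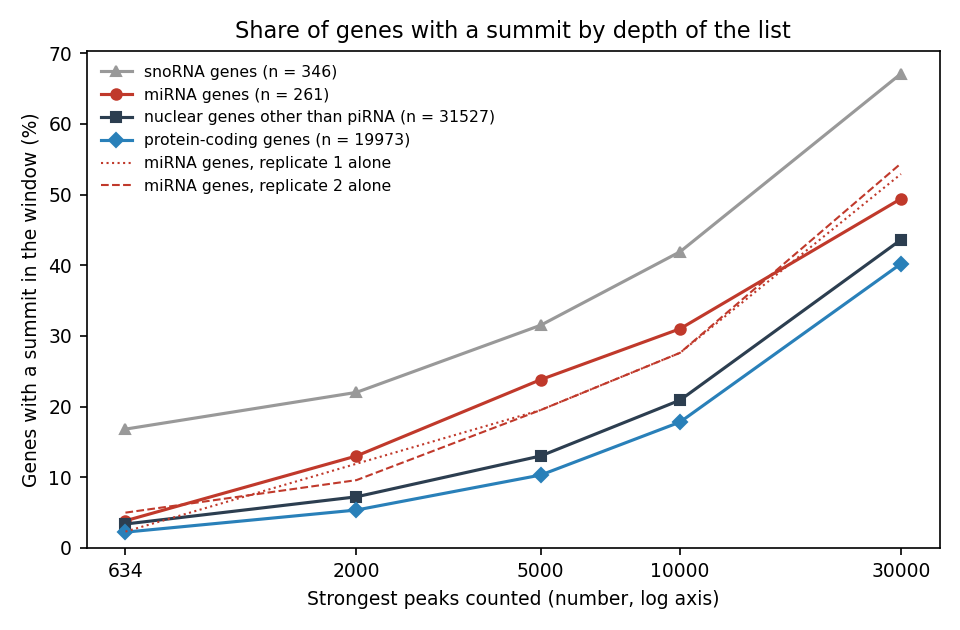
Share of genes (%, vertical axis) with a summit from 1000 bp upstream to 500 bp downstream of the 5′ end, by how many of the strongest peaks are counted, for miRNA genes and for other gene classes in the joint list and in each replicate. In the joint list the miRNA genes are at 3.83% at 634 peaks and 13.0% at 2000 peaks, where nuclear genes other than piRNA genes are at 3.37% and 7.22%.

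The strongest peak in the window of a miRNA gene was the one at mir-51. Signal is the authors' value for a peak against its control, and each list has its own scale, so values are compared within a list and by rank from the strongest down. Offsets are in bp from the 5′ end of the gene, negative when the summit is upstream. The summit of mir-51 (chromosome IV, 11026013 to 11026112, minus strand) lay at -74 bp, with a signal of 544 in the joint list, rank 9 of 30000. It had a signal of 186 and rank 20 in replicate 1, and 350 and rank 9 in replicate 2. The summit also lay inside F36H1.17, an unclassified noncoding RNA gene on the same strand, 33 bp after its 5′ end. That 5′ end is nearer to the summit than that of mir-51. These genes cannot be told apart as the gene the peak belongs to. The nearest protein-coding gene, alh-3, was 316 bp away. Both replicates thus put this peak among their strongest 20.

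The peak of mir-52 (chromosome IV, 14034008 to 14034107, plus strand) was almost as high. It had a joint signal of 429 and rank 27, with its summit inside the hairpin at 7 bp after the 5′ end. Replicate 1 gave 172 and rank 25, and replicate 2 gave 264 and rank 25. An annotated antisense noncoding RNA covers the same position, so it and mir-52 cannot be told apart as the gene of this peak. The 5′ end of mir-52 was the nearer. The nearest protein-coding gene lay 8580 bp away.

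The mir-54 to mir-56 hairpins lie in a row on chromosome X (from 13144691 for mir-56 to 13145094 for mir-54, minus strand) within an intron of F09A5.3, which runs on the opposite strand. They shared 1 peak with a joint signal of 99.6, rank 536. The nearest 5′ end was that of a noncoding RNA gene, F09A5.11, 80 bp before the summit on the same strand as the hairpins. This gene and the hairpins cannot be told apart as what the peak belongs to. The summit was at -97 bp from mir-54, -267 bp from mir-55 and -404 bp from mir-56. It also fell within the window of mir-55b, an annotated hairpin on the other strand of mir-55, at 361 bp after its 5′ end. Replicate 2 ranked the peak 427, with a signal of 71.1, and replicate 1 ranked it 1333, with 33.8. The peak therefore stood inside the strongest 634 of 1 replicate and outside those of the other.

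The last member of the family, mir-53 (chromosome IV, 11027593 to 11027691, minus strand), did not reach the IDR list. Its peak had a joint signal of 73.1, rank 1174, at -36 bp. Its signal was 29.3 in replicate 1, rank 2432, and 43.1 in replicate 2, rank 1780. The summits of mir-51 and mir-53 are 1541 bp apart and are separate peaks. The mature sequences of mir-52 and mir-53 are almost identical, and their peaks stood at ranks 27 and 1174.

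**Figure D2:**
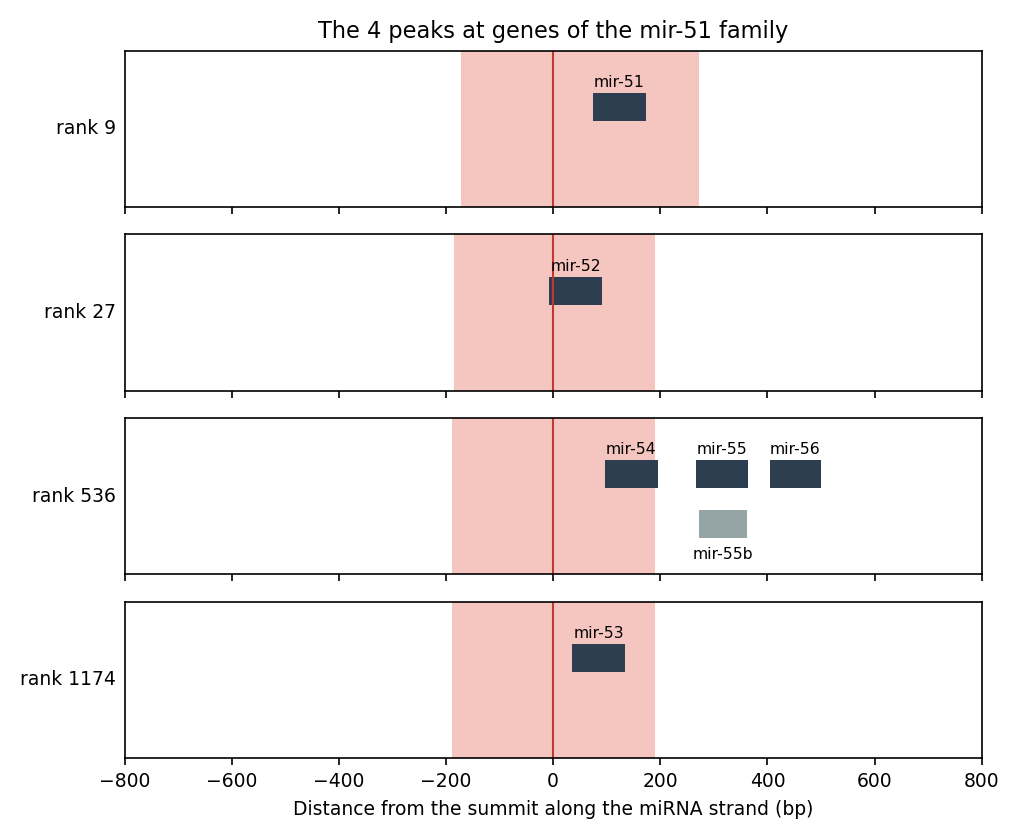
Peaks at the mir-51 family, drawn by distance in bp from the summit in the direction of the miRNA strand, with the peak as the authors bounded it (shaded), the summit (line) and the annotated miRNA genes (boxes, grey for mir-55b on the other strand), each labelled with its joint rank. The nearest summits lie between -97 and 7 bp from a 5′ end, and the summit of mir-52 is inside its hairpin.

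Seeds were read from every annotated mature sequence, including both strands of a duplex, so a gene can stand in more than 1 group. The groups of seeds AGAGUGG and UGACCCU share genes, so not all groups are distinct families. Among the 10 seed groups with 4 or more genes, the mir-51 family was the 1 whose members all had a summit within the strongest 2000 joint peaks. It supplied 5 of the 10 miRNA genes with an IDR summit, and its 6 genes were spread over 4 loci and 4 peaks. The nearest summit offsets at these 4 peaks were -74, 7, -97 and -36 bp. The mir-35 family, needed in embryos, had 7 of 8 genes in the strongest 2000, but all 7, mir-35 to mir-41, lie in 1 cluster on chromosome II and shared 1 peak. That peak had a joint signal of 68.7, rank 1467, and its summit was 8 bp after the 5′ end of mir-35. Its rank was 1158 in replicate 1 and 3837 in replicate 2. The eighth gene, mir-42, stands apart, with a joint signal of 43.8 and rank 8176 at -3 bp. The mir-80 family (seed GAGAUCA) had 2 of 6 genes in the strongest 2000 at 2 peaks, and the let-7 family had 1 of 5, mir-241. Beyond the mir-51 and mir-80 families, none of the 10 groups had a gene with an IDR summit.

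The remaining IDR peaks were at mir-80, mir-354, mir-5549 and mir-1824. The peak of mir-80 (chromosome III, 8865270 to 8865367, minus strand), a member of a family abundant in worms, had a joint signal of 96.4 and rank 576 at -165 bp, with the nearest protein-coding gene 4567 bp away. It was the 1 IDR peak that replicate 1 favoured while replicate 2 placed it outside its strongest 634, at signal 45.3 and rank 505 against 49.9 and rank 1021. The other 3 peaks each lay in the window of a protein-coding gene as well, so the miRNA and the protein-coding gene cannot be told apart as the gene such a peak belongs to. The peak at mir-354 (chromosome I, 14468382 to 14468491, minus strand, joint signal 235, rank 114) was at -859 bp, between the 5′ ends of ekl-4 (-150 bp) and rps-20 (-247 bp), a ribosomal protein gene whose exon mir-354 overlaps. It ranked 125 in replicate 1 and 113 in replicate 2. The summit in the hairpin of mir-5549 (chromosome III, 6971976 to 6972085, minus strand, joint signal 131, rank 329) was at -191 bp from rfc-4, a subunit of the DNA clamp loader, and at -350 bp from eef-1A.1, a translation elongation factor. It ranked 461 in replicate 1 and 305 in replicate 2. The peak at mir-1824 (chromosome I, 13513955 to 13514047, plus strand, joint signal 107, rank 470) was 407 bp after the gene's 5′ end but at -72 bp from Y87G2A.18. It ranked 3388 in replicate 1 and 323 in replicate 2, the widest difference among the 7.

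When each peak was given only to the nearest 5′ end of any non-piRNA gene, 3 miRNA genes kept an IDR summit, namely mir-52, mir-5549 and mir-80. With the summit required to lie within 200 bp of the annotated miRNA gene, 5 did, namely mir-51, mir-52, mir-54, mir-5549 and mir-80. In the upper 1 of 2 equal parts of the IDR list by signal, 3 did, namely mir-51, mir-52 and mir-354. No share over all genes is given under these rules, so these counts are not set against a background. The window edge also mattered. From 1000 to 2000 bp upstream there were further IDR summits at mir-59 (signal 102, -1564 bp), mir-2215 (signal 98.9, -1645 bp) and mir-35 (signal 93.3, -1957 bp), and a second one at mir-52 (signal 94.7, -1265 bp). Just inside the edge, mir-354 was the farthest, at -859 bp.

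Agreement between the replicates was lower for the weaker peaks. Of the 7 IDR peaks at miRNA genes, 4 had a summit within 200 bp among the strongest 634 of both replicates, at mir-51, mir-52, mir-354 and mir-5549. Over all 634 IDR peaks this held for 423 (66.7%). Of the 22 peaks that serve the 34 miRNA genes in the strongest 2000 joint peaks, 21 were seen in both relaxed lists, but 7 were within the strongest 2000 of both. Over all 2000 joint peaks the shares were 95.9% and 38.7%. Replicate 1 gave the lower standing in 5 of the 7 IDR peaks.

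**Figure D3:**
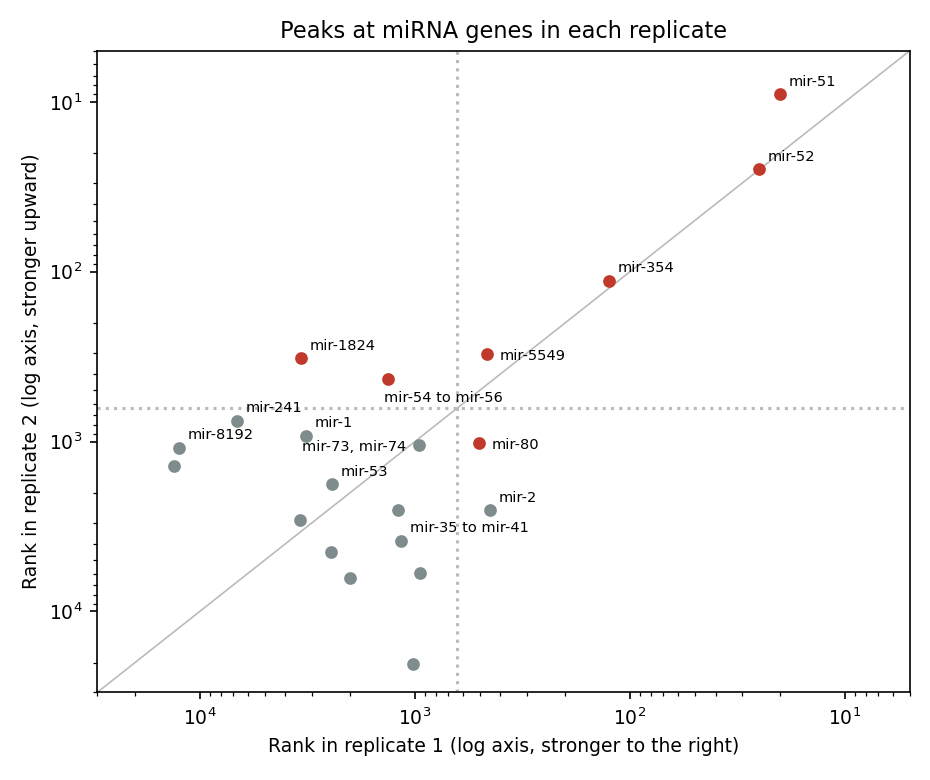
Rank of peaks at miRNA genes in replicate 1 (horizontal, log axis) against replicate 2 (vertical, log axis), stronger to the right and upward. Red points are peaks in the IDR list, dotted lines mark rank 634 and the diagonal marks equal rank. Peaks of mir-51 and mir-52 lie near the corner of the strongest peaks and those of mir-54 to mir-56, mir-1824 and mir-80 are outside the strongest 634 of 1 replicate.

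The next miRNA peaks in joint signal lay below the IDR threshold, and most had unequal ranks in the replicates. The clustered mir-73 and mir-74 on the X chromosome shared a peak with joint signal 86.4, rank 718, at -155 bp from mir-73, ranked 958 and 1051 in replicates 1 and 2. The peak of mir-2, in an intron of ppfr-1 on the same strand, had joint signal 80.8 and rank 845, with rank 446 in replicate 1 and 2542 in replicate 2. At mir-1829c, in an intron of piki-1, the joint signal was 80.8 and the rank 847, with ranks of 947 and 5917 in the replicates. A tRNA gene lay within 200 bp of that summit, and 71.1% of the 36-base stretches of its window were single-copy. The part that repeated sequence has in this value was not tested. It was the 1 miRNA peak of the strongest 2000 with a tRNA gene so near, and none had a snoRNA gene. The let-7 family member mir-241 had joint signal 78.3 and rank 938 at -482 bp, with rank 752 in replicate 2 but 6727 in replicate 1. The muscle miRNA gene mir-1 had joint signal 77.7 and rank 974, with ranks of 3210 and 925. The genes mir-8186-1 and mir-8186-2 are annotated on opposite strands of nearly the same stretch of chromosome II and shared a peak of joint signal 72.1, rank 1240. Its summit was also at -572 bp from gmeb-1, a gene of the same family as gmeb-2. At mir-8192, in an intron of flcn-1, the joint signal was 72.1 and the rank 1241, with ranks of 12509 and 1086 in the replicates. The peak at mir-8190 had joint signal 70.1 and rank 1369 at -888 bp, with ranks of 2011 and 6386 in the replicates. At mir-81 the joint signal was 64.9 and the rank 1801, with the summit 35 bp after the 5′ end. The ranks at that summit were 1024 in replicate 1 and 20423 in replicate 2.

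Several well-studied miRNA genes had weak summits or none. No joint summit lay in the window of let-7, which times late larval development, of mir-48 or of lsy-6, which sets the identity of a taste neuron. For let-7 the gene is annotated as its 1732 bp primary transcript, and replicate 2 alone had a summit, at rank 21098 and -926 bp. For mir-48 replicate 2 alone had one at rank 28495, and lsy-6 had none in any list. At lin-4 the joint signal was 55.2, rank 3395, with rank 649 in replicate 1 and no summit in replicate 2. At mir-84 the joint signal was 29.3, rank 24359. The aging-related mir-71 had joint signal 56.1 and rank 3190, with ranks of 9126 and 4568 in the replicates. The neuronal mir-124 had joint signal 51.5 and rank 4494, and mir-82 had 52.7 and rank 4095, with no summit in replicate 1. A summit in these lists does not show that the gene is used in embryos, and its absence is not evidence of no binding, since depth is unknown.

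Most miRNA genes, with a peak or without, lay between genes or in introns. Of the 261 genes, 152 were intergenic, 97 were intronic and 12 overlapped exons. Among the intergenic genes 12 (7.89%) had a summit within the strongest 2000 joint peaks, at 10 peaks, which is close to the 7.22% of all non-piRNA genes. Among the 67 intronic genes on the strand of their host 8 (11.9%) did, at 7 peaks. Among the 30 intronic genes on the opposite strand 13 (43.3%) did, but at 5 peaks, since mir-35 to mir-41 count 7 genes at 1 of them. The intronic genes on the host strand had 61 hosts, and these hosts did not stand out. None had an IDR summit in its own window, beside 2.22% of protein-coding genes. In the strongest 2000, 3 had one (4.92%, beside 5.35% of protein-coding genes). The 3 were gmps-1, rpl-24.1 and ras-1. For rpl-24.1 the peak, joint rank 1405, was the same as that of mir-353, whereas the peaks of gmps-1 and ras-1 were not those of their miRNAs.

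The distance from summit to hairpin varied among the 7 IDR peaks, from 7 bp at mir-52 to -859 bp at mir-354. Taking the nearest miRNA gene for each peak, the median offset was -74 bp with quartiles of -131 and 15 bp, 4 of 7 were upstream of the 5′ end, and 4 lay within 100 bp of it. Over the 22 peaks of the strongest 2000 the median was -160 bp with quartiles of -356.75 and 7.75 bp, 15 were upstream, and 8 were within 100 bp.

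**Figure D4:**
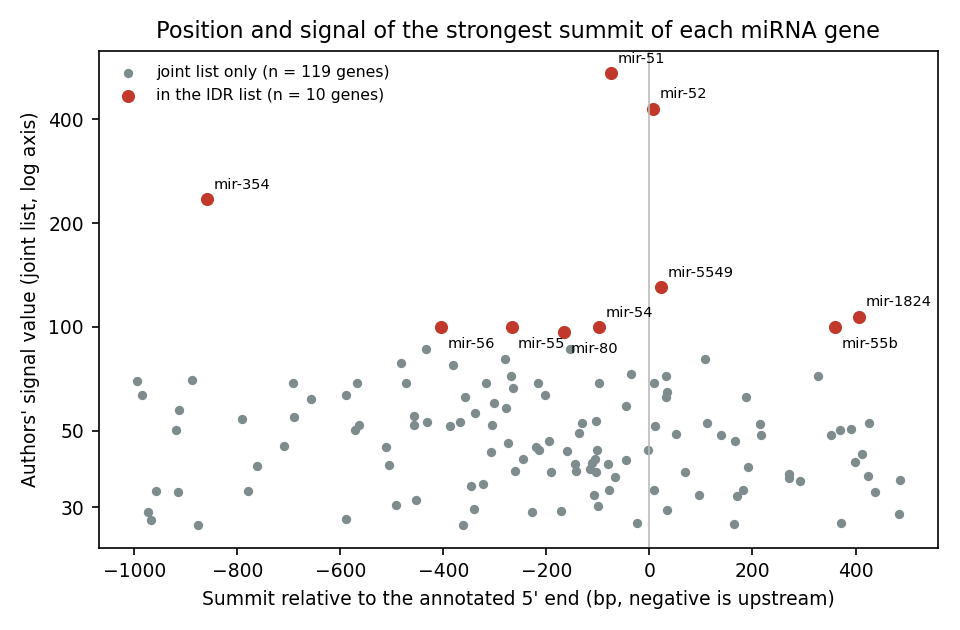
Position of the summit in bp from the annotated 5′ end (horizontal axis, negative is upstream) against joint signal on a log axis for the 129 miRNA genes with a joint summit. Genes with an IDR summit are red, and among them mir-51 and mir-52 are the highest, at -74 and 7 bp.

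The searched words were present at few of the miRNA peaks. Of the 7 IDR peaks at miRNA genes, GCGCAC occurred at 2, CGCAAG at 2, and ACGCGC, CTCCGCCC and the B box at 1 each, while TACGTA occurred at none. Over all 634 IDR peaks the word was present at 95 peaks for CGCAAG, and the shares were 18.8% for GCGCAC, 18.0% for ACGCGC, 5.05% for CTCCGCCC, 37.9% for the B box and 1.10% for TACGTA. In windows of the same length at the 5′ ends of 31523 non-piRNA genes CGCAAG was at 4.05%, GCGCAC at 3.55%, ACGCGC at 3.38%, CTCCGCCC at 1.40%, the B box at 10.4% and TACGTA at 1.61%. The B box match was the one in the mir-51 window, inside F36H1.17 and 56 bp after its 5′ end, where the summit is 33 bp after it. The first 4 words and the B box had been chosen with results of these data known, so these shares describe and do not test. At the 22 peaks of the strongest 2000 the counts were 6 (27.3%) for GCGCAC, 3 (13.6%) for ACGCGC, 4 (18.2%) for CTCCGCCC and 2 (9.09%) for the B box, beside 13.3%, 12.1%, 3.20% and 19.4% of all 2000 peaks. The B box was thus less frequent at these peaks than over the list. Its share was close to the 10.4% at 5′ ends of non-piRNA genes. The list also holds summits at 313 of 612 tRNA genes. GCGCAC and CTCCGCCC were more frequent at these peaks than over the list, each on few peaks. The mean GC content was 48.9% in these 22 windows and 44.9% over all 2000. At the 5′ ends of all miRNA genes, CTCCGCCC was at 3.83% and GCGCAC at 2.30%. What GC content and tRNA genes contribute to these shares was not tested. Windows at the miRNA IDR peaks had a mean GC content of 46.8%, beside 45.6% over all IDR peaks.

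A list of 39 genes linked to miRNAs was examined, all found in the annotation. It holds genes that make miRNAs, load them, act with them or turn them over, and also targets and regulators. Of the 39 genes, 3 (7.69%, background 2.22% of protein-coding genes) had an IDR summit and 4 (10.3%, background 5.35%) had one within the strongest 2000. All 4 were among the 26 genes for making, loading, action and turnover, where the shares were 11.5% and 15.4%. The 8 targets and downstream genes and the 5 regulators of miRNA transcription had none in the strongest 2000. One of these regulators, nhr-23, named here after its values were seen, was just past that limit at joint rank 2048, with rank 510 in replicate 1 and 20948 in replicate 2. The Argonaute gene alg-5 had a joint signal of 162 and rank 228 at -810 bp, ranked 554 and 166 in replicates 1 and 2. That peak also lies in the windows of the histone genes his-67 and his-68. The CCR4-NOT subunit gene ntl-2 had joint signal 160 and rank 235 at -459 bp, ranked 270 and 238. The miRNA cofactor gene nhl-2 had joint signal 96.7 and rank 573 at -866 bp, ranked 469 and 2007, and its peak also lies in the windows of tag-340 and F26F4.14. The GW182-type gene ain-1, whose product binds Argonautes, had joint signal 77.5 and rank 986, ranked 721 and 3833. The main miRNA Argonautes alg-1 (rank 4837) and alg-2 (rank 2661) were lower, drsh-1 (Drosha) was at rank 24392, and dcr-1 (Dicer), pash-1 and lin-41 had no joint summit. Without replicate 1 the list had 2 genes within the strongest 634 and without replicate 2 it had 4.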

How the data were processed

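ChIP-seq peaks of 2 biological replicates were deposited as ranked lists on ce11, per the labels. The authors made a relaxed list for each replicate, a joint relaxed list and an IDR list. Each deposited peak has a signal value, a -log10 q value and a summit offset, an other number giving the summit's place in the peak. The signal is the authors' own. Which caller, aligner, IDR threshold and treatment of multiply matching reads were used is not given in the sources used here. Sequencing depth is unknown, so no interval was computed. Positions are 1-based, and WBcel235 is the assembly of ce11. Signals were read and ranked in Python 3.11.15 with pandas 2.3.3 and numpy 2.4.6, with Ensembl 115 genes. The search was tested on simulated data. Members, lists and all words but CTCCGCCC were chosen with earlier results of these data known. Genes named are those with an IDR summit, the next 15 by joint signal seen in both replicates, and 27 fixed names. Outside that rule, mir-59, mir-64, mir-65, mir-228, mir-229, mir-353 and mir-2215 were named after their values were seen. The ce10 lists were not used. Shares are descriptions without a test, because 1 group allows no comparison.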

Additional observations from a re-analysis of the deposited data

How the results depend on the processing

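The count of miRNA genes with an IDR summit was 10. It stayed within 1.5 times that number with upstream windows of 500 bp (9) and 2000 bp (13), any overlap of the peak, removal of peaks near tRNA or snoRNA genes, the 5′ end of the hairpin (10 each) and loci in place of genes (8). It was 5 with the summit within 200 bp of the gene body and 3 with the stronger 1 of 2 equal parts of the IDR list. It was 3 with each peak given to the nearest 5′ end only, and 34 with the strongest 2000 joint peaks. Apart from loci and the strongest 2000 peaks, these alternatives have no share over all genes beside them. Leaving out 1 replicate gave 6 to 13. The joint relaxed count of 129 was 62 in the strongest 5000 peaks and 81 in the strongest 10000. The count seen in both replicates stayed at 4 with summits matched within 100 or 500 bp. The ratio of the IDR share to that of all nuclear genes was 1.64, to that of non-piRNA genes 1.14 and to that of protein-coding genes 1.72. Of the named genes 36 had a joint summit, and 36 and 37 did with the narrower and wider windows, where the signal changed for 4 and 2 genes. Host genes with an IDR summit were 0 throughout, and pathway genes were 2 to 4 around 3. The hairpin, locus and replicate alternatives for hosts and pathway genes were chosen after seeing the data. No paired analysis was possible because there is 1 group only. Depth is unknown, so an absent summit does not show absence of binding.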

Other observations

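At some miRNA genes the lists gave different standings. At mir-58a the joint summit had a signal of 49.2 and rank 5376 at -136 bp. It was at -44 bp from the 5′ end of a noncoding RNA gene, so the genes cannot be told apart. Replicate 2 ranked a summit at -155 bp from mir-58a 528, and replicate 1 ranked one at 322 bp 1076. At mir-229 and mir-64, which lie in an intron of gcn-1, the joint rank was 1952, with the summit at -589 bp from mir-229, and replicate 1 ranked that peak 3277. The strongest summit of replicate 2, rank 634, was another one, at -367 bp. At mir-228 the joint rank was 1636, with ranks of 13111 and 1384. At lin-4 replicate 1 gave rank 649 and replicate 2 gave no summit.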
